A study of Arabidopsis thaliana with 4 samples.

Results

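The chloroplast of Arabidopsis thaliana keeps a small genome of its own, and the genes described here are those of its photosynthetic machinery, its RNA polymerase, the large subunit of Rubisco and a protein of cytochrome assembly. They were taken as the probe sets whose single gene symbol in the platform annotation begins, in lower case, with ndh, psa, psb, pet or rpo, or is rbcL or ccsA. That gave 42 of the 22746 non-control probe sets, 1 for each of 42 genes: 5 of photosystem I, 15 of photosystem II, 6 of the cytochrome b6f complex, 10 of the NDH complex, 4 of the plastid RNA polymerase, rbcL and ccsA. All 42 gene identifiers matched the plastid chromosome of the RefSeq table for assembly TAIR10.1, as the symbols state. The probe set of ndhB is listed with 2 gene entries, since the gene is repeated in the plastid genome, and was left out by the rule.

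Rosettes of 46-day-old plants were sprayed with 30 µM dexamethasone (DEX) or, as mock, with 0.05% ethanol, and whole rosettes were taken 5 h later. All plants were of the C24 background and carried an inducible construct for ORS1, a NAC transcription factor known as a promoter of leaf senescence, so there was no group without the construct and a response to the steroid alone was not measured. The labels give neither the inducible system's promoter nor the number of plants or lines behind a sample. There were 2 Affymetrix ATH1 arrays per treatment, labelled biological replicates 1 and 2, and 0 probe sets were paired with ORS1, so the induction itself was not checked.

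Photosystem II splits water and photosystem I reduces ferredoxin, and the cytochrome b6f complex passes electrons between them. The NDH complex returns electrons to the chain in cyclic flow around photosystem I. Each complex is built from plastid-encoded and nuclear-encoded subunits. The bacterial-type polymerase made from the rpo genes transcribes most photosynthesis genes of the plastid, while the rpo genes of the rpoB operon are read by a nuclear-encoded polymerase. Plastid transcripts do not in general carry the stable poly(A) tail of nuclear messages. The labels name a MessageAmp II kit, which starts from that tail, so the signals rest on whatever plastid RNA the priming reached, and how much that was is not known.

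None of the 39 that could be tested passed for DEX against mock, whose median change was -0.03 on the log2 scale. By contrast, the arrays of replicate 2 stood above those of replicate 1 in both treatments, by a median of 0.72, or 1.65-fold. On 37 of the 42 genes both replicate 2 arrays lay above both replicate 1 arrays, which 14.0% of all tested probe sets showed. The labels do not say what the replicate number stands for, so this second pattern describes these 4 arrays. In whole rosettes, less plastid RNA per cell and fewer chloroplast-rich cells cannot be told apart from the plastid values alone. The 8 nuclear photosynthesis genes measured, a small part of those listed, differed by -0.15 to 0.17 between the replicate numbers. The cause of the plastid pattern was not tested.

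The deposited values are log2 expression values from GCRMA, which corrects background by probe sequence, normalizes the arrays to one distribution and combines the probes of a set. They ran from 2.59 to 13.62 over the table, with array medians between 6.51 and 6.55. A probe set was tested if at least 2 arrays reached a log2 value of 4, and 19883 were. psaC, ndhE and ndhF lay under 4 on every array and were not tested. ndhH passed the filter only through the replicate 2 arrays, at 4.11 and 4.02. Of the 18 leaf markers listed, 3 had a probe set with 1 gene (RCA, LHCB4.1 and LHCB4.2), and they read 11.48 to 13.42. Of the 5 root markers, 3 were measured, and the log2 of their summed signal was 9.53 and 9.78 on DEX replicates 2 and 1 and 9.20 and 9.83 on mock replicates 2 and 1, most of it PYK10. Of the 5 guard cell markers, 2 were measured (MUTE and FMA), and they read 5.05 to 6.78. For floral and vascular markers 0 probe sets with 1 gene were available here.

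**Figure D1:**
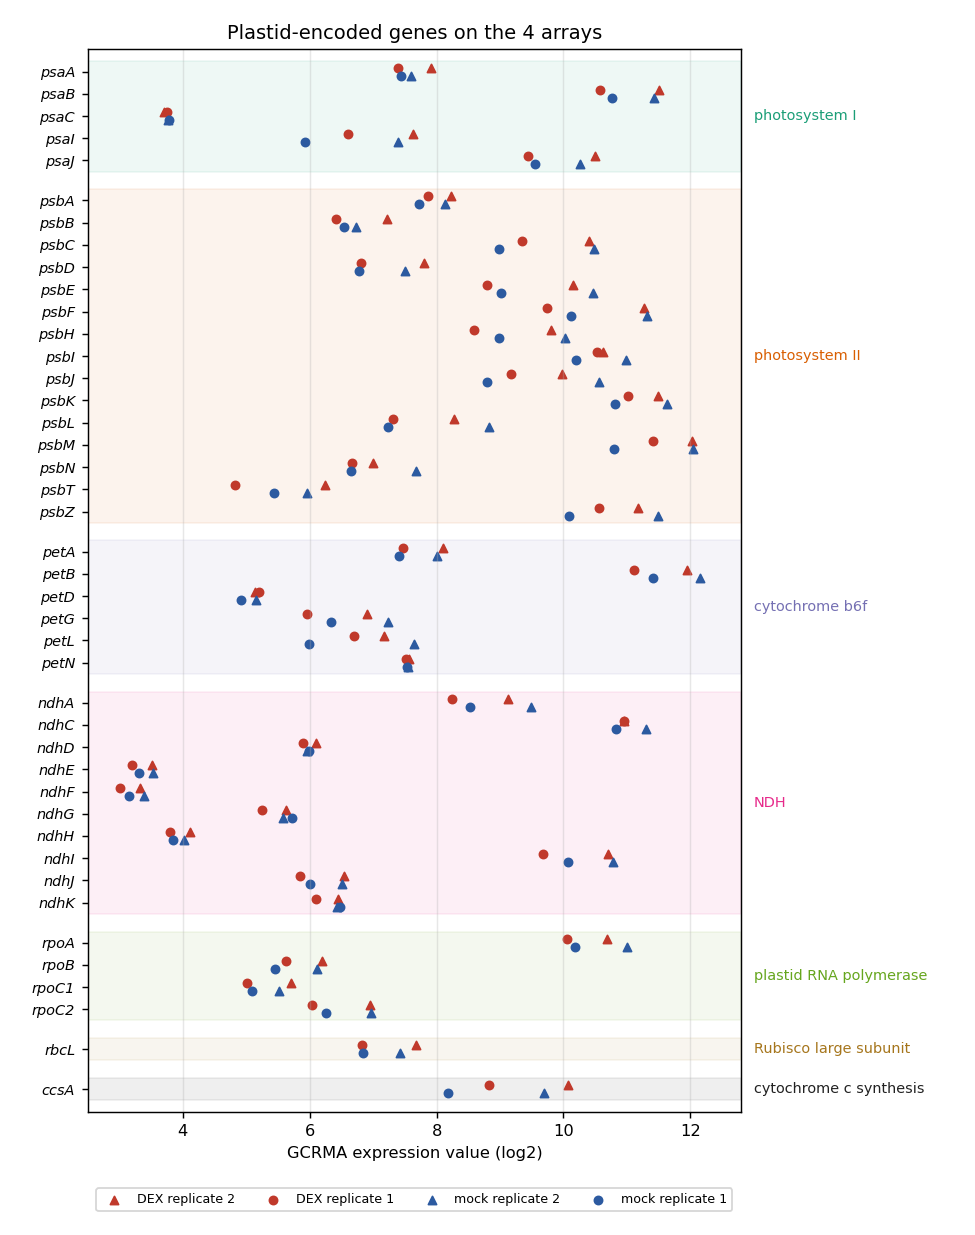
Values of the 42 plastid-encoded genes on the 4 arrays, on the x axis in GCRMA log2 units, with one row per gene and the complexes shaded. Triangles are replicate 2 and circles replicate 1, in red for DEX and blue for mock. The triangles lie right of the circles on 37 of the 42 rows, while red and blue symbols interleave.

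In level, the genes covered most of the measurable range, from a mean of 3.22 for ndhF to 11.66 for petB. Probe sets bind with different strength, so these signals give no order of transcript number between genes, and the complexes are set side by side only as signals. The median over the genes of a complex was 9.98 and 8.80 on DEX replicates 2 and 1, and 10.47 and 8.98 on mock replicates 2 and 1, for photosystem II. Those of photosystem I read 7.91 and 7.40 after DEX and 7.59 and 7.44 after mock, in the same order. For cytochrome b6f they were 7.37 and 7.09 after DEX and 7.60 and 6.88 after mock. The polymerase genes had medians of 6.57 and 5.83 after DEX and 6.54 and 5.85 after mock, and the NDH genes 6.28 and 5.87 after DEX and 6.19 and 5.99 after mock. The NDH probe sets thus gave the dimmest readings together with those of the polymerase: 5 of 10 NDH genes and 2 of 4 polymerase genes had a mean under 6, against 1 of 15 for photosystem II.

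Genes read from one operon differed widely in signal. In the operon that runs from ndhD through psaC, ndhE, ndhG, ndhI and ndhA to ndhH, the means spanned 6.92 log2 units, with ndhI at 10.31 and ndhA at 8.85 but ndhE at 3.39. In the psbB operon (psbB, psbT, psbH, petB and petD) the span was 6.56, and the neighbours petB and petD stood at 11.66 and 5.10. psaA and psaB, which encode the paired core proteins of photosystem I and lie next to each other, stood at 7.59 and 11.07. The psbK and psbI pair was the most even, 0.65 apart.

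The first comparison asks whether 5 h of DEX changed the plastid transcripts. Of the 39 tested genes, 0 passed at an adjusted p under 0.05 (limma with Benjamini-Hochberg adjustment over all 19883 probe sets, 2 arrays per group), and 0 were under an unadjusted p of 0.05. Over all probe sets 0.448% passed and 8.78% were under the unadjusted 0.05, and at a background share of under 1 gene in 39 the first count is no result about these genes. The smallest adjusted p was 0.772, for ndhG. Of the 39, 19 had a positive change, where 47.1% of all tested probe sets did.

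The groups also overlapped. DEX lay wholly above mock on 0 of the 39 and wholly below on 0, against 18.1% and 19.8% of all tested probe sets. For 35 of these genes that follows from the replicate pattern: where both replicate 2 arrays lie above both replicate 1 arrays, the treatments must interleave. Among the 3 untested genes psaC had both DEX values (3.71 and 3.75) under both mock values (3.76 and 3.78), 0.04 apart at the floor of the measurement.

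The largest changes were of ccsA, psaI and petG. ccsA encodes a membrane protein that attaches haem to c-type cytochromes of the thylakoid. It read 10.07 and 8.83 on DEX replicates 2 and 1, against 9.70 and 8.18 on mock replicates 2 and 1. Within each replicate number DEX was the higher, by 0.37 and 0.65, yet the replicates of a treatment lay further apart than the treatments did, and the change of 0.51 ± 0.52 (SE) did not pass (limma adjusted p = 0.851).

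psaI, a small membrane subunit of photosystem I, read 7.63 and 6.60 on DEX replicates 2 and 1 and 7.38 and 5.93 on mock replicates 2 and 1. Its change was 0.46 ± 0.47 (SE; limma adjusted p = 0.851), again with DEX higher within both numbers. petG, a small subunit of cytochrome b6f, went the other way: 6.90 and 5.96 on DEX replicates 2 and 1 against 7.23 and 6.34 on mock replicates 2 and 1, a change of -0.36 ± 0.35 (SE; limma adjusted p = 0.845). In all of these the SE was about as large as the change.

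By complex, the median change was 0.07 for photosystem I (-0.05 to 0.46), -0.01 for photosystem II (-0.34 to 0.30), 0.04 for cytochrome b6f (-0.36 to 0.14), -0.10 for NDH (-0.32 to 0.03) and -0.03 for the polymerase (-0.22 to 0.13). Over all tested probe sets it was -0.01. In photosystem II, psbM had the highest change (0.30 ± 0.38, SE) and psbN the lowest (-0.34 ± 0.31); psbN encodes an assembly factor of photosystem II and not a subunit. psbA, which encodes the reaction centre protein D1, was at 0.13 ± 0.23, and its partner psbD, encoding D2, at 0.15 ± 0.34.

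Of the NDH genes 8 of 10 had a negative change, and 0 of the 8 tested passed. ndhA was the lowest at -0.32 ± 0.37 (SE), followed by ndhI at -0.24 ± 0.36 and ndhG at -0.22 ± 0.16, all from 1 operon. rbcL, the large subunit of the carbon-fixing enzyme, was at 0.12 ± 0.30, with 7.67 and 6.82 on DEX replicates 2 and 1 and 7.42 and 6.84 on mock replicates 2 and 1. Replicate 1 of both treatments was nearly equal for rbcL, and the small change came from replicate 2.

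**Figure D2:**
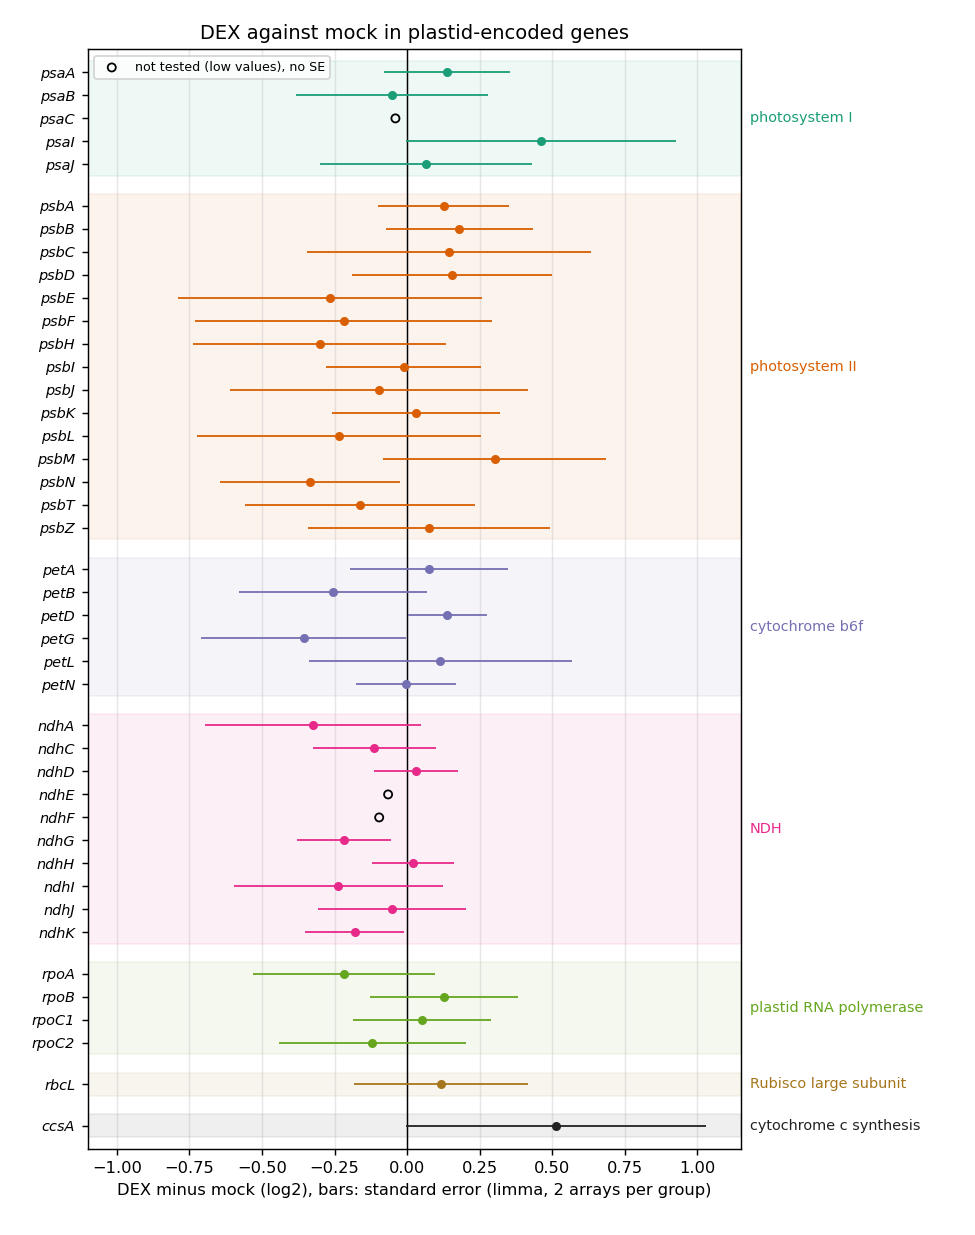
DEX minus mock in log2 units for each gene on the x axis, with one row per gene and the complexes shaded. Points are limma estimates with bars of 1 SE from 2 arrays per group, and open circles are psaC, ndhE and ndhF, which were not tested. All values lie between -0.36 and 0.51, and none passed.

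These null results depended on single arrays in 3 cases. Without DEX replicate 2, psbT passed as lower (-0.88, limma adjusted p = 0.0099), and without mock replicate 2, psbM (0.93, adjusted p = 0.0377) and petL (0.94, adjusted p = 0.0265) passed as higher. In such fits a lone array of one replicate number is set against a pair that holds both, and directions turned with the array left out: psbT was at 0.55 without DEX replicate 1, psbM at -0.33 and petL at -0.71 without mock replicate 1. Of the 39 genes, 15 to 18 changed sign when 1 array was left out, ccsA and psaI among them (-0.25 and -0.27 without mock replicate 1). The photosystem II median was -0.61 without mock replicate 1 and 0.43 without mock replicate 2.

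The second comparison sets replicate 2 against replicate 1, within DEX and within mock. The median difference over the 42 genes was 0.67 within DEX and 0.70 within mock, whereas over all tested probe sets it was -0.004 and -0.04. Replicate 2 was the higher on 40 genes within DEX and on 38 within mock. Both replicate 2 arrays were above both replicate 1 arrays on 35 of the 39 tested genes, where 14.0% of all tested probe sets showed this. The 35 include ndhH, which passed the filter only through its replicate 2 arrays and so says nothing here. In the difference fit (limma with treatment as a term, Benjamini-Hochberg over all probe sets), 15 of the 39 passed as higher in replicate 2 and 0 as lower, against 0.422% of all tested probe sets that passed as higher and 0.0302% as lower. At an unadjusted p of 0.05, 29 of the 39 were higher, against 4.52% of all.

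That fit has 1 residual degree of freedom. It took its errors wholly from the trend of spread with signal over all probe sets, and not from a gene's own spread, so its p-values are no measure of how far single genes repeat. Without the treatment term, or with each probe set's own variance, 0 of the 39 passed after adjustment, and at an unadjusted p of 0.05 there were 29 and 7. A count that uses no such model was taken too: 6 of the 39 genes stood at least 1 log2 unit higher in replicate 2 within DEX and also within mock, against 0.111% of all tested probe sets. These were psbC, psbE, psbF, psbH, psaI and ccsA. Earlier results of these data had already shown plastid genes among such probe sets, so the count is a description and no independent support.

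**Figure D3:**
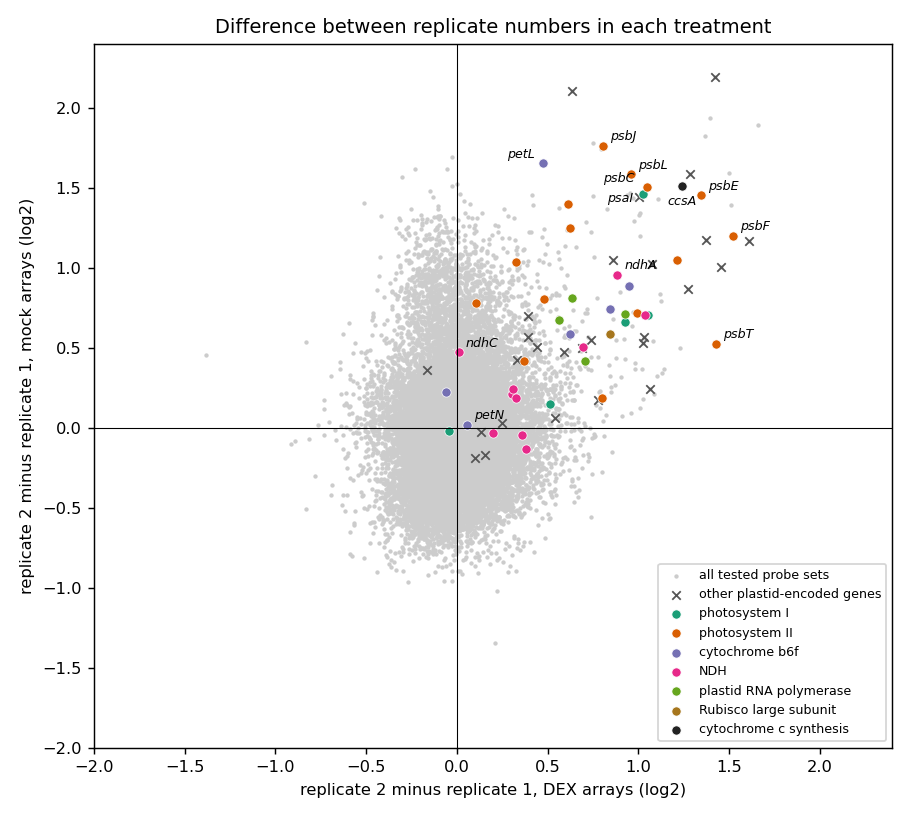
Replicate 2 minus replicate 1 within DEX (x axis) and within mock (y axis), both in log2 units. Grey points are all 19883 tested probe sets, coloured points the 42 genes by complex, and crosses 27 other plastid-encoded genes. The coloured points spread toward the upper right, up to psbF at 1.52 and 1.20 and psbJ at 0.80 and 1.76, away from the grey mass around 0.

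Photosystem II had a median difference of 0.80 within DEX and 1.05 within mock. Among the complexes with several genes this was the largest median within mock and in the mean of both treatments (0.98), while within DEX photosystem I had the larger one (0.93). All 15 of its genes had both replicate 2 arrays above both replicate 1 arrays. psbE and psbF encode the paired subunits of cytochrome b559 beside the reaction centre, and share an operon with psbL and psbJ. psbE read 10.15 and 10.47 on DEX and mock replicate 2, against 8.80 and 9.01 on DEX and mock replicate 1, a 2.64-fold difference. psbF read 11.27 and 11.33 on replicate 2, against 9.75 and 10.12 on replicate 1, in the same order of treatments. For both genes the gap between replicate numbers was several times that between treatments.

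The small subunit genes psbL and psbJ of that operon differed by 1.27 and 1.28 in the mean of both treatments, with unequal parts. psbJ differed by 0.80 within DEX and 1.76 within mock, and psbL by 0.96 and 1.59. The 4 genes of the operon lay between 1.27 and 1.40 in that mean, the narrowest range of any operon with 4 or more genes measured.

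Other genes of photosystem II varied more. psbC, encoding an inner antenna protein, read 10.40 and 10.49 on DEX and mock replicate 2, against 9.35 and 8.98 on DEX and mock replicate 1. psbH, a small subunit, differed by 1.21 within DEX and 1.05 within mock. psbT, also a small subunit, differed by 1.43 within DEX and only 0.53 within mock, while psbM (0.62 and 1.25), psbZ (0.61 and 1.40), psbN (0.32 and 1.04) and psbI (0.11 and 0.78) leaned the other way.

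psbA showed the smallest difference of photosystem II in the mean of both treatments, though psbI and psbN were lower within DEX and psbB within mock. It read 8.23 and 8.13 on DEX and mock replicate 2, against 7.87 and 7.72 on DEX and mock replicate 1. psbM, the brightest of the complex, read 12.03 and 12.05 on replicate 2, against 11.41 and 10.79 on replicate 1. psbD, psbK and psbB differed by 0.86, 0.64 and 0.49 in the mean of both treatments. psbB, encoding the other inner antenna protein, had 0.80 within DEX but 0.19 within mock. In the fit, 10 of the 15 passed: psbC, psbD, psbE, psbF, psbH, psbJ, psbL, psbM, psbT and psbZ.

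In photosystem I the difference was 0.93 within DEX and 0.66 within mock at the median. psaI had the largest in the mean of both treatments (1.24), with 7.63 and 7.38 on DEX and mock replicate 2, against 6.60 and 5.93 on DEX and mock replicate 1, and was the 1 of 4 tested genes that passed (adjusted p = 1.68e-06 in the limma fit with the limits given above). psaB, the brightest, read 11.51 and 11.43 on replicate 2, against 10.58 and 10.76 on replicate 1. psaJ, a small subunit, differed by 1.06 and 0.70 within DEX and mock, more than psaI within DEX (1.03), and psaA by 0.51 and 0.15. psaC, encoding the iron-sulfur protein that passes electrons to ferredoxin, read 3.71 and 3.76 on replicate 2, against 3.75 and 3.78 on replicate 1, at the floor of the measurement.

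Cytochrome b6f held both kinds of gene. petL, a small subunit, had the largest mean difference, 1.07, with 7.17 and 7.65 on DEX and mock replicate 2, against 6.70 and 5.99 on DEX and mock replicate 1. Most of it came from the mock pair, since the DEX pair differed by 0.48 and the mock pair by 1.66. petG differed evenly, by 0.95 within DEX and 0.89 within mock, and passed, as petL did. petB, which encodes cytochrome b6, read 11.95 and 12.16 on replicate 2, against 11.11 and 11.42 on replicate 1. petA, encoding cytochrome f, differed by 0.62 and 0.59 within DEX and mock.

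petN and petD hardly differed. petN, a small subunit, read 7.57 and 7.56 on DEX and mock replicate 2, against 7.52 and 7.54 on DEX and mock replicate 1, a difference of 0.04 at a signal well above the floor. petD, encoding subunit IV, differed by -0.06 within DEX and 0.23 within mock, at a mean of 5.10. The brighter petB beside petD differed by 0.85 and 0.74.

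The NDH genes had the smallest median, 0.34 within DEX and 0.23 within mock, and 0 of the 8 tested passed. ndhA read 9.13 and 9.49 on DEX and mock replicate 2, against 8.25 and 8.53 on DEX and mock replicate 1, a difference of 0.92 (limma adjusted p = 0.0534), and ndhI differed by 1.04 within DEX and 0.71 within mock. ndhD, in contrast, read 6.10 and 5.95 on replicate 2, against 5.90 and 5.99 on replicate 1, and ndhG and ndhK, which were also near 6, differed by 0.12 and 0.16 in the mean.

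ndhE, ndhF and ndhH, at or under 4, differed by 0.25 to 0.28. ndhJ had 0.69 within DEX and 0.50 within mock. ndhC was bright and yet differed little: 10.96 and 11.30 on DEX and mock replicate 2, against 10.95 and 10.83 on DEX and mock replicate 1. Its DEX pair differed by 0.01 and its mock pair by 0.47.

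All 4 polymerase genes had both replicate 2 arrays above both replicate 1 arrays, with medians of 0.67 within DEX and 0.69 within mock. rpoC2, encoding the beta double-prime subunit, read 6.95 and 6.96 on DEX and mock replicate 2, against 6.03 and 6.26 on DEX and mock replicate 1, and was the 1 that passed (limma adjusted p = 0.00637). rpoC1, encoding beta prime, had the smallest difference in the mean of both treatments, though within DEX rpoB and rpoA had smaller ones, with 5.71 and 5.51 on replicate 2, against 5.00 and 5.09 on replicate 1. rpoB, the beta subunit, differed by 0.56 and 0.67 within DEX and mock. rpoA, the alpha subunit, lies in a ribosomal protein operon apart from the other 3, and read 10.69 and 10.995 on replicate 2, against 10.05 and 10.18 on replicate 1. In that mean the difference ranged from 0.56 (rpoC1) to 0.82 (rpoC2) over genes of both operons.

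rbcL differed by 0.84 within DEX and 0.59 within mock and did not pass (limma adjusted p = 0.107). ccsA differed by 1.24 within DEX and 1.51 within mock, 1.38 in the mean, after psbE (1.40) the largest of the 42. Of its neighbours on the plastid genome, rpl32 had 0.63 within DEX and 2.11 within mock, and ndhD 0.20 and -0.03.

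**Figure D4:**
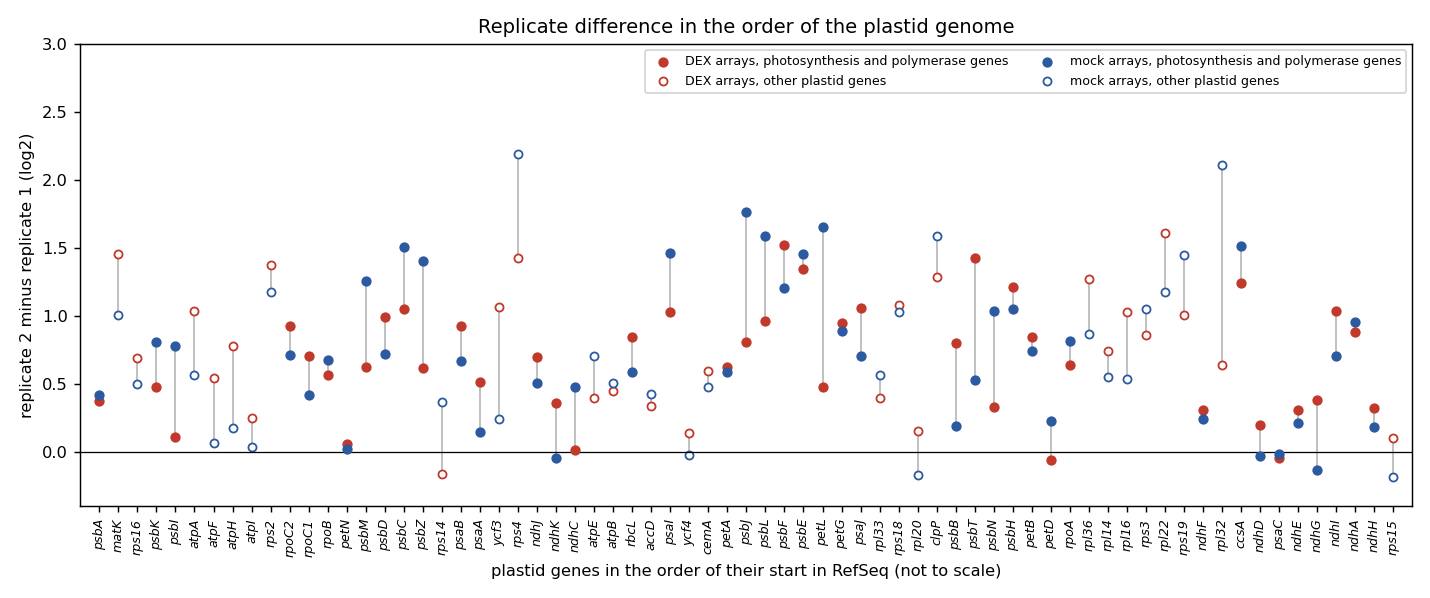
Replicate 2 minus replicate 1 in log2 units on the y axis for the 42 genes (filled) and 27 other plastid genes (open), within DEX (red) and within mock (blue), in the order of their start on the plastid genome. The run psbJ, psbL, psbF and psbE stands high, whereas petN and petD stand near 0 between higher neighbours, and the adjacent ndhD and psaC both stand near 0.

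The pattern was shared with the rest of the plastid genome. The 27 other plastid-encoded genes with 1 gene entry had medians of 0.74 within DEX and 0.55 within mock, 12 of the 25 tested passed, and 23 of the 27 had both replicate 2 arrays above both replicate 1 arrays. Among them rps4, a ribosomal protein gene, had the largest mean difference (1.81) and rps15 the smallest (-0.04). The 6 genes of the plastid ATP synthase had medians of 0.49 within DEX and 0.34 within mock, the 15 measured ribosomal protein genes 0.86 and 0.87, and 6 genes of other plastid proteins 0.83 and 0.45. The 8 plastid probe sets listed with several gene entries, that of ndhB among them, had 0.96 and 1.60, and 7 of the 8 passed. For DEX against mock 0 of either group of other plastid probe sets passed. Of the 22 probe sets on the array at least 1 log2 unit higher in replicate 2 within both treatments, 16 were plastid-encoded (6 of the 42 genes and 10 others), 4 were unlisted in the annotation used here and 2 lay on nuclear chromosomes. Of the 84 that passed as higher in replicate 2, 34 were plastid-encoded (15 of the 42 genes among them), 28 lay on nuclear chromosomes and 19 were unlisted.

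Nuclear genes were listed from the photosystems with their antennae and for Rubisco with its activase RCA. A probe set of 1 gene was available for 2 of 20 listed for photosystem I and 5 of 29 for photosystem II. For Rubisco it was 1 of 5, RCA alone. The 8 listed nuclear genes with a probe set of 1 gene (PSAN, PSAE-1, PSBY, PSBW, LHCB4.1, LHCB4.2, LHCB4.3 and RCA) had mean differences of -0.15 for RCA to 0.17 for PSAE-1, and 0 passed. They are bright, between 10.87 and 13.42 on single arrays. The plastid genes atpB and atpE are as bright, with means of 13.01 and 12.88, and differed by 0.47 and 0.55. Of the lists for nuclear subunits of cytochrome b6f, nuclear subunits of NDH, and the nuclear factors of plastid transcription, 0 probe sets with 1 gene were available here. The 18 mitochondrial probe sets had medians of 0.18 within DEX and 0.20 within mock, and 16 of them had a mean under 6. Both replicate 2 arrays were above both replicate 1 arrays on 11 of the 17 tested, against 14.0% of all tested probe sets. On 1 they were below. Of the mitochondrial probe sets, cox2, a subunit of cytochrome oxidase, had the largest difference (1.08 and 0.54), and 1 of the 17 tested passed.

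Among the Arabidopsis controls, 25S ribosomal RNA had the widest gap between replicate numbers. Actin_5 was higher in replicate 2 within DEX (8.08 against 7.91) and mock (8.36 against 8.33). Ubq_3 was lower within DEX (11.72 against 11.88) and mock (11.92 against 12.14). The other actin, GAPDH and ubiquitin controls differed in sign between the treatments. The 25S ribosomal RNA control, which is RNA without a poly(A) tail, read 9.64 and 8.86 on DEX and mock replicate 2, against 7.38 and 7.35 on DEX and mock replicate 1, a wider gap than that of any of the 42 genes within DEX. The 5S ribosomal RNA control, near the floor, read 3.73 and 4.05 on DEX and mock replicate 2, against 3.69 and 3.72 on DEX and mock replicate 1. The part of RNA input, priming or the plants in the difference was not tested.

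Dimmer genes had smaller differences. Over the 42 genes, mean signal and difference had a Pearson r of 0.35 (Spearman rho 0.35) within DEX and 0.54 (0.56) within mock, given as a description, since the genes share the same arrays. The 10 genes with a mean under 6 had a median difference of 0.26 in the mean of both treatments, and the 32 others 0.84. Among those 32 genes the r was 0.08 within DEX and 0.26 within mock. By median level and by median difference in the mean of both treatments, the complexes fell in the same order. Photosystem II had 9.61 and 0.98, photosystem I 7.59 and 0.80, and cytochrome b6f 7.21 and 0.70. The polymerase genes had 6.20 and 0.67, and the NDH genes, close to them in level, 6.10 and 0.26. Within a single treatment that order of the differences did not hold. Within DEX, photosystem I (0.93) stood above photosystem II (0.80), and the polymerase (0.67) above cytochrome b6f (0.55). Within mock, the polymerase (0.69) stood above cytochrome b6f (0.66) and photosystem I (0.66). The part of signal in the differences was not tested. Among the NDH genes, the bright ndhI (10.31) and ndhA (8.85) had the largest differences, 0.87 and 0.92. Those with a mean under 6 differed by 0.08 to 0.28. The brightest NDH gene, ndhC, differed by 0.24, and the dimmer ndhJ by 0.60.

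Gene length was set against the difference as a description too. By RefSeq span, log2 length and the difference had an r of -0.07 (rho -0.06) within DEX and -0.40 (rho -0.39) within mock over the 42 genes. The 27 other plastid-encoded genes had 0.20 within DEX and -0.11 within mock. The 11284 tested nuclear genes with a length had 0.035 within DEX and -0.54 within mock. The 21 shortest genes, of 90 to 519 bases, had medians of 0.69 within DEX and 0.89 within mock, and the 21 longest, of 531 to 4131 bases, 0.64 and 0.59. Among the 12 shortest, of 90 to 135 bases, petL, psbI, psbJ, psbL, psbM, psbN and psaI had the larger difference within mock, while psbT, psbF, psaJ, petG and petN had the larger within DEX. The part of length in the values of single genes was not tested.

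**Figure D5:**
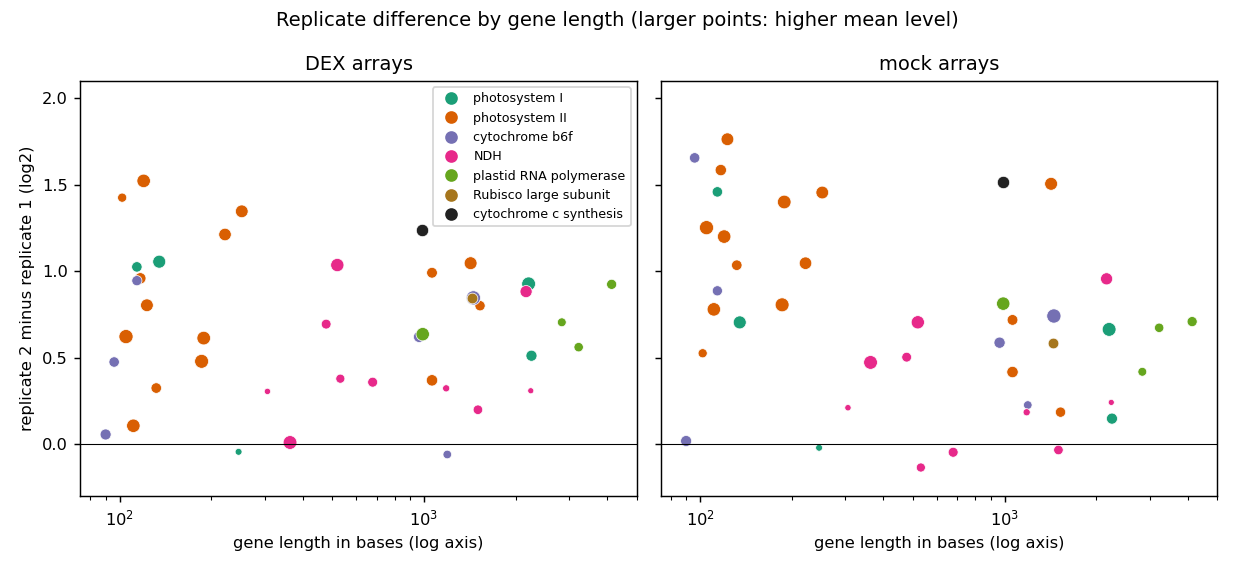
Replicate 2 minus replicate 1 in log2 units against gene length in bases (log axis), within DEX (left) and within mock (right). Colours are the complexes and larger points have a higher mean signal. Within mock psbJ, at 123 bases, reaches 1.76 and psaA, at 2253 bases, lies at 0.15, but psbC, at 1422 bases, reaches 1.51. In the DEX panel psbF, at 120 bases, reaches 1.52. The shortest gene, petN, at 90 bases, lies at 0.06 within DEX and 0.02 within mock.

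Treatment and replicate number also met in the DEX change. Within replicate 1 the median DEX minus mock change over the 42 genes was -0.05, with -0.61 for psbT and 0.70 for petL at the ends. Within replicate 2 it was -0.01, with -0.69 for psbN and 0.49 for psbB at the ends. petL, the highest in replicate 1, was at -0.48 in replicate 2, and psbT, the lowest in replicate 1, was at 0.29. Of the 39 tested genes, psaI, ccsA, psbA, psbD, petA and rpoB had DEX higher within both numbers. psbE, psbF, psbH, petB, petG, ndhA, ndhI, rpoA and rpoC2 had DEX lower within both, by at most 0.40 in any pair.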

How the data were processed

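The 4 ATH1 arrays, 2 of DEX and 2 of mock, were grouped by their titles. The deposited log2 values were made by the authors with GCRMA, per the submitters' processing notes; no version came with the tool's name, and the log2 scale was read from the values. Of 22810 probe sets, 64 controls were left out and 2863 removed by the filter (fewer than 2 arrays at log2 4), which left 19883. These were fitted with limma 3.58.1 in R 4.3.3 (lmFit, eBayes with an intensity trend), two-sided, without a block for DEX against mock and with treatment as a term for replicate 2 against 1. The fits have 2 and 1 residual degrees of freedom. The code was tested on simulated data. Gene names came from the platform annotation (14016 probe sets listed, 13513 with 1 gene), and plastid location, gene order and length from RefSeq TAIR10.1. The arrays' number limits the precision. Since the labels call the replicates biological without naming separate plants, p-values for DEX against mock measure only the spread between these arrays. Those for replicate 2 against 1 rest on the trend of spread with signal over all probe sets. The genes and lists were chosen with earlier results of these data known. By rule, every gene of the set is named; array values are given for each complex's brightest gene, those with the largest and smallest replicate difference, the 3 largest DEX changes, rbcL and ccsA, and further genes were added after their values were seen. Alternatives covered filter, normalization, variance model, threshold, cross-hybridising probe sets, the block and single arrays.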

Additional observations from a re-analysis of the deposited data

How the results depend on the processing

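For DEX against mock, 49 probe sets of all tested were called higher and 40 lower. These counts were 27 and 24 without the intensity trend, 0 and 0 with each probe set's own variance (1297 at an unadjusted p under 0.05), 107 and 81 at an adjusted p under 0.1, and 80 higher with robust empirical Bayes. Leaving out 1 array gave 112 (without DEX replicate 1) to 1803 (without mock replicate 2) higher and 50 to 1388 lower, with 0 to 2 of the 42 genes higher and 0 to 1 lower. The largest counts thus came without mock replicate 2. With the replicate number as a block there were 438 higher and 237 lower, and 0 of the 42 genes (smallest adjusted p 0.269, for psaI). The labels do not tie same-numbered arrays together, and their deviations had r = 0.11 over all tested probe sets and 0.57 over the 42 genes, with 2 pairs only.

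For replicate 2 against replicate 1, 84 probe sets were called higher and 6 lower, with 15 of the 42 genes higher. Without a filter these were 34, 1 and 8, without the intensity trend 39, 0 and 8, without the treatment term 0, 0 and 0 (542 of all at an unadjusted p under 0.05), and with each probe set's own variance 12, 12 and 0. The count called lower was 12 after quantile normalization, 0 with the stricter filter and 12 at an adjusted p under 0.1. Of the 42 genes, 14 to 19 passed under the stricter filter, robust, quantile and equal-median settings and without cross-hybridising probe sets. The cause of these moves was not tested.

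Without 1 array the median DEX minus mock change ran between -0.31 and 0.31 over all 42 genes, between -0.27 and 0.41 in photosystem I, -0.61 and 0.43 in photosystem II, -0.42 and 0.18 in cytochrome b6f, -0.31 and 0.10 in NDH and -0.42 and 0.37 in the polymerase, so each of these medians took both signs. The median replicate difference without 1 array is that of the other treatment: 0.67 to 0.70 over all, 0.80 to 1.05 in photosystem II, 0.55 to 0.66 in cytochrome b6f, 0.23 to 0.34 in NDH and 0.67 to 0.69 in the polymerase, which was 0.65 after quantile normalization. These replicate differences leave no residual degrees of freedom and have no test. The within-number values of DEX minus mock were an alternative chosen after seeing the data. Low signal limits psaC, ndhE, ndhF and ndhH, whose values lie near the filter or under it.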
